A study of Homo sapiens with 21 samples.

Results

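AU565 aggregates exposed to trastuzumab on 2 occasions were compared with aggregates that never met the antibody. AU565 is an established human breast carcinoma cell line of luminal epithelial type with amplified ERBB2, and trastuzumab is the therapeutic antibody against the HER2 receptor that ERBB2 encodes. The comparison takes 6 of the 21 RNA-seq libraries of the series, chosen by their sample titles: 3 of primed plus treated aggregates and 3 of untreated aggregates. The primed plus treated cells received trastuzumab at 20 µg/ml for 24 h as a monolayer, were then moved to liquid overlay culture with 5% Matrigel for 96 h, where they form floating aggregates, and were given 50 µg/ml for a further 24 h before RNA was taken. Untreated aggregates spent 96 h in the same overlay culture with no antibody. Treated aggregates (overlay culture and the 50 µg/ml exposure, n = 3) and primed aggregates (the 20 µg/ml exposure and then overlay culture, n = 3) carried 1 exposure each and are used below as references. The columns of primed aggregates in the count table do not carry their sample titles word for word and were matched through the treatment labels, on which every value of that group rests. All are the unedited line, labelled wild type, in medium with serum, and no group given a control antibody is among the samples used here. The labels do not say whether the 3 replicates of a group came from separate cultures, so p-values measure the spread between these samples, which may be technical.

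HER2 has no known ligand of its own and signals mainly in pairs with other members of the EGFR family, above all HER3, through PI3K and AKT and through RAS and ERK. When PI3K and AKT signalling is low, FOXO transcription factors enter the nucleus and raise receptor genes such as INSR and ERBB3. Cells inside aggregates receive less oxygen than cells in a monolayer, and the hypoxia-inducible factors (HIF) then switch on genes for glycolysis, blood vessel growth and their own degradation.

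The exposed libraries held 22336675 to 26921113 counts and the untreated ones 16939524 to 19577897. Levels are given as CPM, each library's counts scaled by edgeR's TMM to a common total, and since they depend on gene length only levels of 1 gene are compared across samples. Of 15969 genes tested with edgeR, 5671 passed at an adjusted p under 0.05 (35.5%): 2812 were higher after both exposures (17.6%) and 2859 lower (17.9%). A change of 2-fold or more was reached by 769 of them (4.82%), 374 higher (2.34%) and 395 lower (2.47%). The median log2 fold change over all genes tested was -0.0021. Counts of list members that rose or fell in this comparison are to be read beside 17.6% and 17.9%. The 3 libraries of one group lay wholly above the 3 of the other for 7217 genes (45.2%), so a lack of overlap is common here and is stated below as a description.

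3 features of the libraries run alongside this comparison. The exposed aggregates were harvested after a further 24 h in culture, and no untreated aggregates of that age were among the samples used. All 21 libraries fall into 2 sets by transcripts of other tissues. The 9 libraries of both groups of aggregates given 50 µg/ml and of monolayers that had been primed carried UMOD (a kidney tubule gene) at 0.825 to 22.8 CPM and SNAP25 (a neuronal gene) at 4.36 to 17.3 CPM, while the other 12 held at most 0.0588 and 0.507 CPM. Those 12 libraries, which include the untreated aggregates, carried TYRP1 (a melanocyte gene) at 5.70 to 33.1 CPM and POSTN (a mesenchymal gene) at 10.8 to 28.9 CPM, against at most 0.256 and 0.138 CPM in the 9. MYH7, a muscle myosin gene, reached 29.9, 20.6 and 0 CPM in the 3 untreated aggregates and at most 0.110 CPM in the 9. The time in culture and the library set cannot be told apart from the 2 exposures. Comparisons of primed plus treated with treated aggregates lie within the 9 libraries. Those of primed with untreated aggregates lie within the 12, and both are given beside the leading results. The 2 mitochondrial ribosomal RNAs took 1.52 to 1.71% of counts in treated and 2.13 to 2.36% in primed plus treated libraries. The part of this difference in the results was not tested. Of 15 kidney genes, 5 were lower and none higher in primed plus treated than in treated aggregates (4.8% of all genes were lower). Primed and untreated aggregates also differed in such transcripts: the summed level of 9 melanocyte genes was 18.6 to 25.9 CPM in untreated and 58.6 to 97.7 CPM in primed aggregates, and that of 11 striated muscle genes 210.4 to 249.6 and 152 to 157 CPM.

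**Figure D1:**
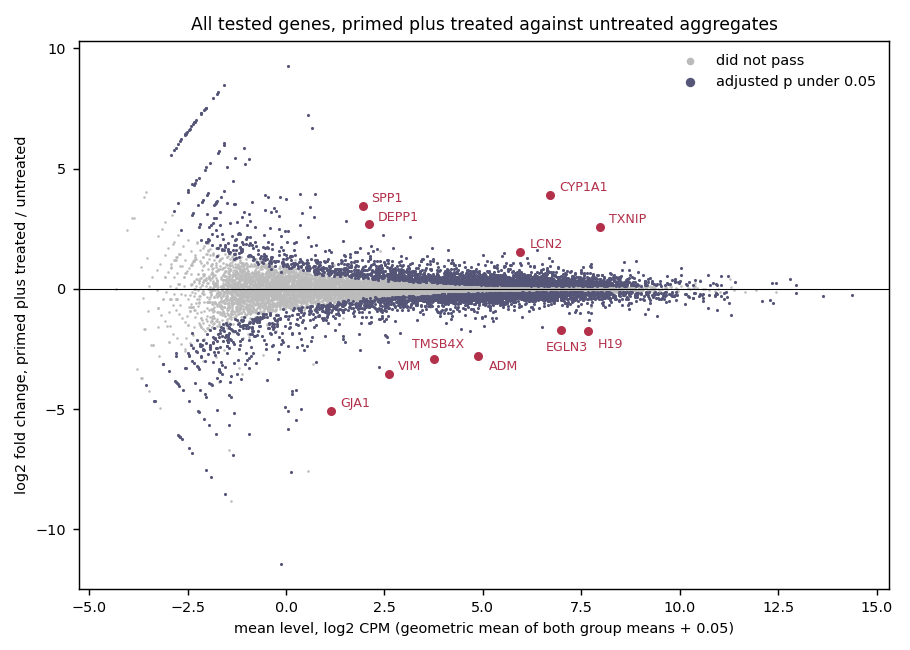
Each point is 1 of the 15969 genes tested; the x axis is its mean level in log2 CPM and the y axis its log2 fold change between primed plus treated and untreated aggregates (3 libraries each). Dark points passed at an adjusted p under 0.05, and red points with names are leading rises and falls among better expressed genes, from CYP1A1 at 3.92 to GJA1 at -5.07.

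Promoter sequences are shown for 5 of the genes described below, because they belong to 3 groups that moved in this comparison: ANKRD37 and ADM among hypoxia genes, MT2A among metallothioneins, and TXNIP and DEPP1 among genes linked to FOXO factors. Each is the 250 bases before a RefSeq start (GRCh38.p14), 5′ to 3′ on the strand of the gene. Only a window that held a match could be shown, and TXNIP has 2 windows. Capitals mark matches on either strand to 1 motif in each: the hypoxia response core (ACGTG or GCGTG) in ANKRD37 and ADM, the metal response core (TGCACNC or TGCGCNC) in MT2A and the forkhead core (TGTTTAC) in TXNIP and DEPP1. Matches to the other motifs are not marked. ANKRD37 lies at chr4:185396591-185396840 (plus strand), ADM at chr11:10304823-10305072 (plus), MT2A at chr16:56608334-56608583 (plus), TXNIP at chr1:145996580-145996829 (minus) and DEPP1 at chr10:44978810-44979059 (minus).
ANKRD37: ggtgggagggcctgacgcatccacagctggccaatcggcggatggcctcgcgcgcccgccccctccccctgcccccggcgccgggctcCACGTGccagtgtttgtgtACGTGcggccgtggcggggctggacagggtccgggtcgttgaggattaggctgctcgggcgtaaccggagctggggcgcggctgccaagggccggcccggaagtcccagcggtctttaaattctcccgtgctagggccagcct
ADM: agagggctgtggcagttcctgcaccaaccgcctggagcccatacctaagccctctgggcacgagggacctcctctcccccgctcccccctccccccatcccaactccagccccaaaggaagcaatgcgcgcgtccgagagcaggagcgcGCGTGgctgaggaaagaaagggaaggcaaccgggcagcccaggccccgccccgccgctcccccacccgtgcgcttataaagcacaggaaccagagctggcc
MT2A: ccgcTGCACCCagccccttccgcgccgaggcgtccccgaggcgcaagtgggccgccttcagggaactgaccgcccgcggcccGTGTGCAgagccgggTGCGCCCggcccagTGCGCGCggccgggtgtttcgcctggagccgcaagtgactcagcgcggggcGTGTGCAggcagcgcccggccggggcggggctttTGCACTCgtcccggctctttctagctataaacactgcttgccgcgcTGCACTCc
TXNIP: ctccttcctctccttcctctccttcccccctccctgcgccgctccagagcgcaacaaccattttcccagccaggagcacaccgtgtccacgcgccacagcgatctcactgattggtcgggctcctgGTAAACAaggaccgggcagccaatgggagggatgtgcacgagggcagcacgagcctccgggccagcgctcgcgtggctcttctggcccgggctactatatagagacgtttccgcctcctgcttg
DEPP1: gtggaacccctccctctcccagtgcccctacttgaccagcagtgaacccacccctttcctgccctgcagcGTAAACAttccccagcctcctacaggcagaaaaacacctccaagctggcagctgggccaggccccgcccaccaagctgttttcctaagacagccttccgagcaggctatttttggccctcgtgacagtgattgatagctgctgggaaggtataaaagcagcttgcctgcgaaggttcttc
In ANKRD37 the first capitals are the core read on both strands with overlapping letters. The hypoxia core was present in 32 of 39 windows of the hypoxia list (82.1%) and in 43.2% of 35116 windows of all genes. The metal core was found in 3 of 4 metallothionein list windows (75.0%) against 24.8% of all, and the forkhead core in 4 of 53 windows of the PI3K and FOXO list (7.5%) against 3.0%. A match describes the letters and is not a measured binding site.

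Transcripts of ERBB2 and its neighbour GRB7 were higher after both exposures. ERBB2 (17:39688094-39728658, GRCh38) stood at 6619.7, 6179.6 and 5767 CPM in untreated and 8407, 7842 and 8345 CPM in primed plus treated aggregates, a log2 fold change of 0.41 ± 0.053 (SE), adjusted p = 2.17e-07. GRB7, the adaptor gene beside it (17:39737938-39747285), went from 831, 783 and 719 to 1470.0, 1388 and 1385 CPM (0.86 ± 0.054 (SE), adjusted p = 1.84e-14). The groups did not overlap for either gene, and neither differed between primed plus treated and treated aggregates beyond the test (log2 -0.13 and 0.13, adjusted p = 0.122 and 0.144). Of 23 amplicon genes, 8 rose and 5 fell, with a median of 0.042 (5 rose without primed plus treated replicate 2 or 3, and without the 6 libraries that carried MYH7). Over all genes 17.6% rose and 17.9% fell. RARA, the retinoic acid receptor gene, was among the amplicon genes that fell (log2 -0.69), as was CDC6, a replication licensing gene (log2 -0.93). Luminal epithelial markers were present in both groups, among them KRT7, KRT8 and KRT18. EPCAM was at 240.3, 243 and 229 CPM in untreated and 292, 291 and 276 CPM in exposed aggregates. CDH1, the E-cadherin gene, was low in both groups, at 1.18, 1.23 and 0.654 CPM in untreated and 0.0449, 0.336 and 0.368 CPM in exposed aggregates.

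Among the partners of HER2, 6 of 18 listed genes rose and 5 fell (median -0.098), against 17.6% and 17.9% over all genes. The falls were 2 without untreated replicate 2 or the 6 MYH7 libraries, 3 without primed plus treated replicate 1 or 3, and 1 in a fit of only the 2 groups. ERBB3, encoding HER3, was 352, 345 and 347 CPM without antibody and 536, 506 and 504 CPM after both exposures (0.57 ± 0.05 (SE), adjusted p = 8.33e-11). EGFR moved the other way, from 305, 321 and 315 to 243, 264 and 256 CPM (-0.30 ± 0.06 (SE), adjusted p = 1.51e-04). LRIG1, a membrane protein that lowers ERBB receptor levels, and CBL, a ubiquitin ligase that marks them for degradation, rose by 0.69 and 0.49 on the log2 scale. The ligand gene NRG1 fell from 1.06, 0.766 and 0.416 CPM to 0.0898, 0 and 0.0368 CPM, but it is also lower in every one of the 9 libraries than in every one of the 12, and the part of the library set in its fall was not tested.

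In the PI3K and FOXO list 16 of 28 genes rose and 5 fell, with a median of 0.287 (over all genes 17.6% rose and 17.9% fell). Without the 6 libraries that carried MYH7, which leaves 1 untreated aggregate, 11 rose and 5 fell. TXNIP, which binds thioredoxin and limits glucose uptake, had 123, 112 and 74.3 CPM in untreated aggregates. Its levels were 277, 359.6 and 425 CPM in primed, 386, 411 and 378 CPM in treated and 630.0, 678 and 544 CPM in primed plus treated aggregates. Both exposures together thus exceeded each alone in every library, with log2 fold changes of 2.58 ± 0.2 (SE), adjusted p = 1.23e-07 against none, 0.66 against treated (adjusted p = 0.0441) and 0.80 against primed aggregates (adjusted p = 0.00455). DEPP1, a small FOXO-induced gene, showed 1.65, 1.99 and 1.31 CPM untreated and 11.6, 13.1 and 7.55 CPM after both exposures (2.68 ± 0.19 (SE), adjusted p = 8.47e-13), and it too was higher than in treated aggregates (log2 0.62, adjusted p = 0.00846). 

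Receptors for insulin and insulin-like growth factor were in the same list. INSR rose from 18.1, 19.5 and 19.7 to 37.7, 35.8 and 33.7 CPM (0.90 ± 0.083 (SE), adjusted p = 1.60e-10), and IGF1R from 38.3, 39.2 and 37.6 to 61.9, 66.7 and 62.5 CPM (0.73 ± 0.057 (SE), adjusted p = 4.64e-12). IRS2, the adaptor that couples both receptors to PI3K, rose from 2.59, 2.91 and 2.97 to 7.09, 6.64 and 6.29 CPM (1.24 ± 0.21 (SE), adjusted p = 1.94e-05). Among the 5 genes of that list that fell were CITED2, a transcriptional cofactor and hypoxia target (319.6, 317 and 349 to 129, 135 and 136 CPM, log2 -1.31), and PDK1, a pyruvate dehydrogenase kinase gene (log2 -1.20). In the BCL2 family list 5 of 25 rose and 5 fell (median -0.021), against 17.6% and 17.9% over all genes. The falls were 3 once genes that separate the library sets were left out. BMF and BCL2L11, which encode the death-promoting BH3-only proteins BMF and BIM, rose by 1.19 and 0.68, and MCL1, a survival gene, by 0.28. FAS, a death receptor gene, had the lowest value of the list (log2 -4.42, adjusted p = 1.08e-05). The part of the library set in that fall was not tested. TNFSF10, the gene of the death ligand TRAIL, increased from 6.35, 6.38 and 9.10 to 20.1, 24.1 and 25.8 CPM (1.69 ± 0.19 (SE), adjusted p = 7.85e-07).

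ERK feedback and early response genes did not move as a block: 9 of 33 rose and 10 fell, or 6 fell without the 6 libraries that carried MYH7. SPRY4, an inhibitor of receptor signalling that ERK induces, was 40.8, 42.4 and 42.8 CPM in untreated and 70.1, 64.96 and 78.3 CPM in exposed aggregates (0.76 ± 0.064 (SE), adjusted p = 2.93e-11), and it was lower than in treated aggregates (log2 -0.28, adjusted p = 0.00201). FOS, a subunit of the AP-1 factor, fell from 51.9, 49.9 and 41.3 to 21.7, 20.4 and 21.02 CPM (-1.18 ± 0.1 (SE), adjusted p = 2.49e-11). For DUSP6, an ERK phosphatase, the difference was 0.33 and did not pass (adjusted p = 0.174, or 0.0337 in a fit of only the 2 groups).

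CYP1A1 had the largest fold change of any gene above 100 CPM in either group (chosen by that measure after its value was seen). It encodes a cytochrome P450 that the aryl hydrocarbon receptor induces, and lies at 15:74719542-74725528. Untreated aggregates had 28.8, 25.5 and 26.5 CPM, primed 46.4, 40.3 and 34.4 CPM, treated 124, 127 and 186 CPM and primed plus treated 403, 346 and 472 CPM. The last group was above every library of the other 3, by 3.92 ± 0.16 (SE), adjusted p = 5.85e-11 against untreated and by 1.48 against treated aggregates (adjusted p = 7.72e-06). CYP1B1, a related P450 gene, was 70.3, 69.8 and 76.2 CPM untreated, 72.2, 72.6 and 92.3 CPM treated and 154, 148 and 178 CPM after both (1.15 ± 0.094 (SE), adjusted p = 2.17e-09). CYP1A2, named after its values were seen, also rose (log2 3.90), from 0.118, 0.102 and 0.238 to 2.42, 2.27 and 2.28 CPM. The receptor's repressor gene AHRR and its target TIPARP, likewise named afterwards, did not pass (log2 0.10 and 0.02, adjusted p = 0.357 and 0.875).

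Metallothioneins, small proteins that bind zinc and copper, were listed with their regulators. 4 of 6 genes rose and none fell, with a median of 1.015. MT2A was 70.5, 59.6 and 67.8 CPM in untreated, 107, 106 and 103 CPM in primed, 196, 197 and 168 CPM in treated and 178, 156 and 149.6 CPM in primed plus treated aggregates (1.29 ± 0.1 (SE), adjusted p = 7.97e-09). MT1X rose from 15.2, 14.04 and 14.9 to 29.7, 25.7 and 25.1 CPM (0.87 ± 0.11 (SE), adjusted p = 1.13e-07), and the zinc exporter gene SLC30A1 by 0.69. MT1G, near absent without antibody (0.0588, 0.102 and 0 CPM), reached 1.62, 1.93 and 4.20 CPM and also exceeded treated aggregates (log2 1.81, adjusted p = 0.00368).

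**Figure D2:**
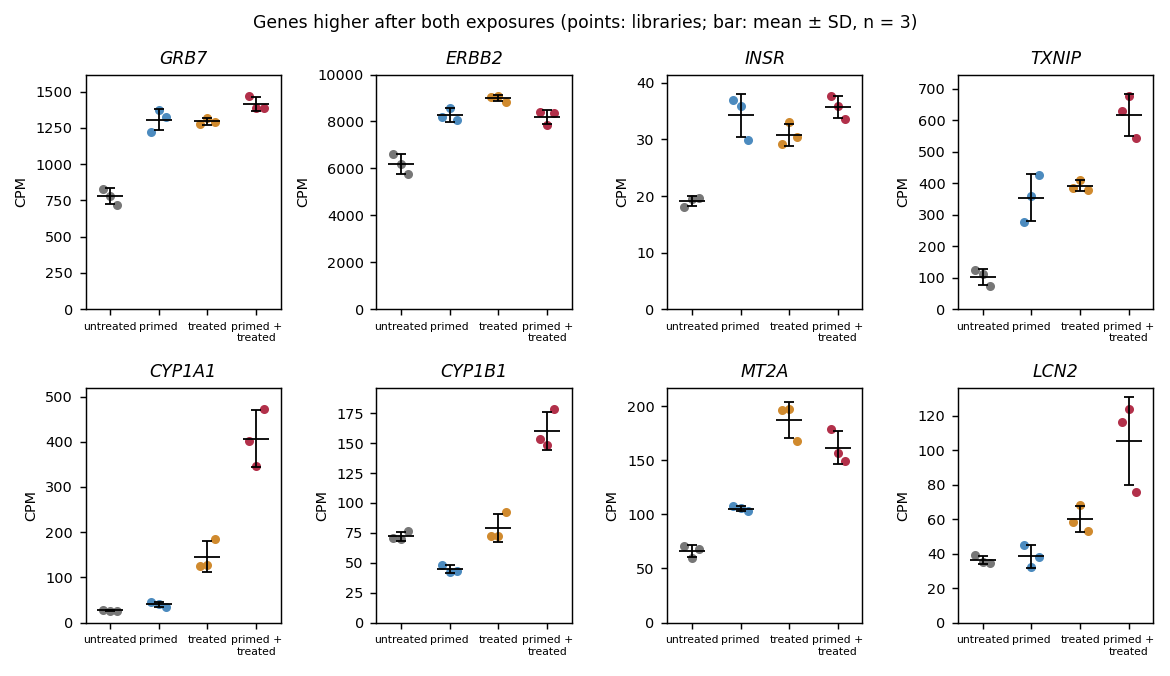
CPM of 8 genes (y axes, each from 0) in untreated, primed, treated and primed plus treated aggregates; points are libraries, bars mean ± SD (n = 3). CYP1A1, CYP1B1, TXNIP and LCN2 are highest after both exposures in every library, whereas ERBB2, GRB7 and INSR lie near the levels of the single exposures.

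Secreted and luminal genes made up most other leading rises. LCN2, which encodes the iron-carrier protein lipocalin 2, went from 39.3, 35.2 and 34.7 to 116, 124 and 76.01 CPM (1.53 ± 0.16 (SE), adjusted p = 2.05e-06). FGB and LBP, genes of the acute-phase proteins fibrinogen beta and lipopolysaccharide-binding protein, rose by 1.63 and 2.16. MUC15, a membrane mucin gene, was 41.8, 42.7 and 42.3 CPM untreated and 90.97, 95.1 and 84.4 CPM after both exposures (1.09 ± 0.067 (SE), adjusted p = 1.38e-14), and PIP, a secretory gene of the breast, rose by 1.22. MUC5B, a gel-forming mucin gene, fell from 269, 290.4 and 363 to 146, 138 and 170.0 CPM (-1.02 ± 0.15 (SE), adjusted p = 8.07e-05), and TFF3, a trefoil peptide gene, fell by 1.35. Of 20 mammary secretory genes tested 7 rose and 2 fell. Without the 6 libraries that carried MYH7, 5 rose and 6 fell.

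Of 21 luminal transcription factor genes 9 rose and 1 fell (median 0.215), among them EHF (135, 139 and 156 to 220.0, 223 and 233 CPM, log2 0.65) and TFAP2C (log2 0.39). Junction and polarity genes rose in 12 of 28 cases and fell in 4. Among desmosomal genes, PPL and DSG2 rose by 0.45 and 0.41, while PKP2 fell (log2 -0.77, adjusted p = 3.31e-12). In the interferon list 11 of 34 rose and 2 fell, or 6 and 2 without the 6 libraries that carried MYH7. OAS1, which senses double-stranded RNA, was 33.7, 32.9 and 33.00 CPM untreated and 68.7, 70.2 and 69.4 CPM after both exposures (1.06 ± 0.067 (SE), adjusted p = 2.94e-14), whereas USP18, a brake on interferon signalling, fell by 0.47. Hair-type keratins fell: KRT81 went from 3512, 3656 and 3837 to 1855, 1750.3 and 1561 CPM (-1.09 ± 0.12 (SE), adjusted p = 1.75e-06) and KRT86 changed by -0.87, although the close similarity of these 2 genes could let reads be shared between them. KRT19, a simple epithelial keratin, fell by 0.60, whereas KRT23 rose by 1.28 (adjusted p = 3.97e-08). Keratins did not move as a list: 3 of 8 rose and 3 fell (median 0.057).

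Hypoxia genes were lower after both exposures. 21 of 33 tested genes fell and 4 rose, with a median of -0.357. EGLN3, the oxygen-dependent hydroxylase gene that HIF induces (14:33924227-33951074), was 215, 219.9 and 246 CPM in untreated aggregates. It was 124, 119 and 115 CPM in primed, 66.5, 72.9 and 77.3 CPM in treated and 65.4, 68.5 and 75.2 CPM in primed plus treated aggregates, a change of -1.70 ± 0.066 (SE), adjusted p = 1.54e-19 against untreated. ADM, which encodes the vasodilator peptide adrenomedullin, fell from 69.3, 82.7 and 76.9 to 12.4, 11.1 and 10.1 CPM (-2.77 ± 0.13 (SE), adjusted p = 3.09e-13), and ANKRD37, a compact HIF target, from 11.8, 13.1 and 13.6 to 2.06, 2.94 and 3.24 CPM (-2.21 ± 0.2 (SE), adjusted p = 1.35e-10). Each of the 3 genes was lower than in primed aggregates, and the differences from treated aggregates did not pass (log2 -0.05, 0.09 and -0.01).

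VEGFA, the vascular growth factor gene, changed less (398, 396 and 311 to 255, 254 and 258 CPM, -0.53 ± 0.065 (SE), adjusted p = 1.32e-07). CA9, a carbonic anhydrase gene widely used as a hypoxia marker, did not pass, at 9.87, 13.1 and 11.2 CPM untreated and 8.75, 9.33 and 13.3 CPM exposed (log2 -0.12, adjusted p = 0.733). NDRG1 fell from 2564, 2664 and 2762 to 1373, 1394 and 1546 CPM (log2 -0.89) and BHLHE40 fell by 1.02. In bulk RNA, fewer cells of a kind and less RNA per cell cannot be told apart. Against the same untreated libraries, 20 of these genes fell in primed aggregates (9.66% of all genes fell there, list median -0.336) and 20 in treated aggregates (17.9% of all genes, list median -0.511).

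Glycolysis followed with 18 of 24 genes lower and 1 higher (median -0.331). HK2, the first enzyme of the path, went from 729, 811 and 813 to 432, 441 and 449.9 CPM (-0.83 ± 0.058 (SE), adjusted p = 3.72e-13) and GAPDH from 6251, 6478 and 6768 to 4486, 4354 and 4146 CPM (-0.59 ± 0.053 (SE), adjusted p = 1.23e-10). SLC2A3, a glucose transporter gene, dropped from 16.2, 17.97 and 12.9 to 1.26, 2.18 and 1.44 CPM (-3.27 ± 0.27 (SE), adjusted p = 1.02e-09), and was 5.74, 10.9 and 8.64 CPM in primed aggregates. Nuclear genes of the respiratory chain were also lower, 22 of 37 with none higher and a median of -0.202. CYCS, encoding cytochrome c, changed from 294, 298 and 354 to 212, 225 and 220.3 CPM (log2 -0.53). Transcripts from the mitochondrial genome rose in 9 of 15 cases and fell in 3. ND1 and ND6, subunits of complex I, rose by 0.58 and 0.53, while COX1, a subunit of complex IV, fell by 0.29. The summed level of that list did not rise, at 68531 to 72250 CPM in untreated and 67997 to 70551 CPM in exposed aggregates. The 2 mitochondrial ribosomal RNAs took 2.50 to 2.75% of counts in untreated and 2.13 to 2.36% in exposed libraries, and their part in these values was not tested.

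Genes for protein synthesis and folding fell by small amounts. In the list of ATF4 targets and the unfolded protein response 21 of 33 fell and 2 rose (median -0.319). HSPA5, the main chaperone of the endoplasmic reticulum, was 1380.5, 1444 and 1379 CPM untreated and 893, 913 and 925 CPM exposed (-0.62 ± 0.059 (SE), adjusted p = 3.95e-10). It was also below treated (1173, 1172 and 1097 CPM) and primed aggregates (1399.8, 1808 and 1665 CPM), with log2 fold changes of -0.33 and -0.84 (adjusted p = 2.24e-04 and 3.29e-12). Cytosolic ribosomal protein genes fell in 27 of 43 cases and rose in 1 (median -0.231), led by RPS14 (2044, 2095 and 2442 to 1380.1, 1337 and 1112 CPM, log2 -0.78). Their processed pseudogenes may share reads with them. MYC fell from 276, 262 and 291 to 211, 219.9 and 217 CPM (-0.36 ± 0.054 (SE), adjusted p = 2.77e-06), and 14 of 34 genes of MYC and ribosome assembly fell with 2 rising (none without untreated replicate 1 or 2, or the 6 MYH7 libraries).

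Cytosolic chaperones did not fall as a list: 6 of 20 rose and 2 fell, with a median of -0.016. Over all genes 17.6% rose and 17.9% fell. HSPA8 rose from 1222, 1265 and 1420.3 to 1661, 1685 and 1594 CPM (log2 0.34) and HSP90AA1 by 0.27. Neither passed when the 6 libraries that carried MYH7 were left out (log2 0.21 and 0.10, adjusted p = 0.0558 and 0.383), where 2 members rose and 2 fell. Without untreated replicate 1, 4 members fell. Sterol synthesis and uptake genes fell in 14 of 28 cases and rose in 4: HMGCS1 and SQLE, enzymes of cholesterol synthesis, changed by -0.38 and -0.38, and the cholesterol exporter gene ABCG1 rose by 0.66.

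**Figure D3:**
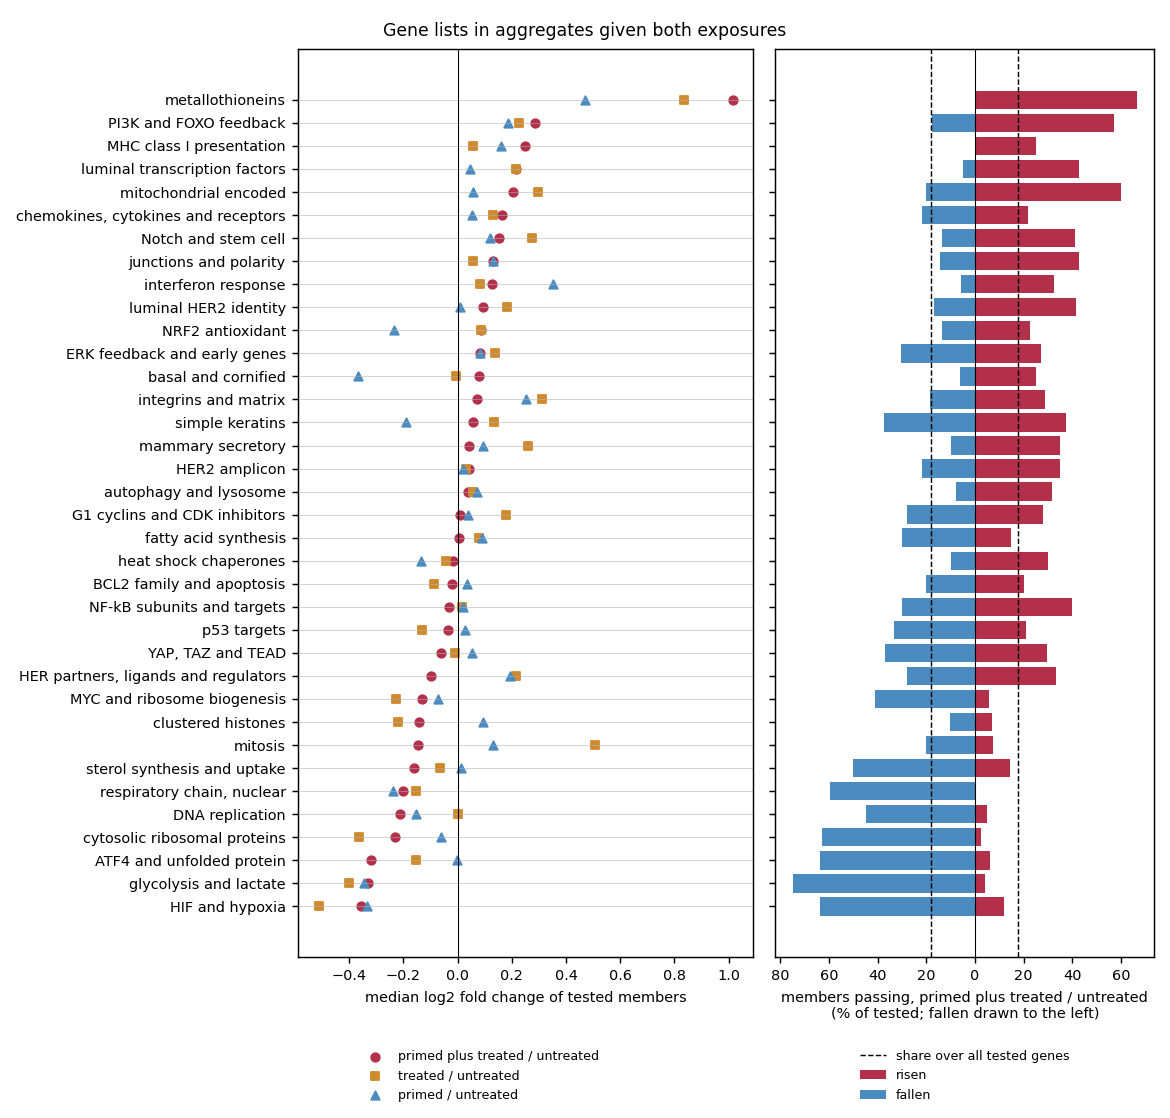
Left, the median log2 fold change (x axis) of the tested members of 36 gene lists (y axis) in 3 comparisons that share the untreated aggregates; right, the percentage of members that rose or fell in primed plus treated against untreated aggregates, with dashed lines at 17.6% and 17.9% over all genes. Hypoxia, glycolysis, unfolded protein and ribosomal protein genes sit at the low end and metallothioneins and PI3K and FOXO genes at the high end.

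Proliferation genes separated both exposures from the late exposure alone. Against untreated aggregates, 3 of 40 mitosis genes rose and 8 fell (median -0.145), beside 17.6% and 17.9% over all genes. The falls were 13 without untreated replicate 1, 4 without untreated replicate 3 and 5 without primed plus treated replicate 1, and 1 rose without the 6 MYH7 libraries. MKI67, the gene of the proliferation marker Ki-67, was 29.03, 35.5 and 32.7 CPM in untreated and 28.9, 31.4 and 32.2 CPM in exposed aggregates (log2 -0.07, adjusted p = 0.648). Treated aggregates had MKI67 at 59.8, 56.1 and 46.8 CPM, and primed plus treated aggregates were lower than these (log2 -0.81, adjusted p = 2.48e-05). In that direct comparison 1274 of all genes passed (7.98%), 508 higher (3.18%) and 766 lower (4.8%). Of the 40 mitosis genes 37 were lower and none higher there, with a median of -0.636. The summed level of the list was 732 to 859.6 CPM in untreated, 1217 to 1301 CPM in treated and 825 to 945 CPM in primed plus treated aggregates. BIRC5, encoding the mitotic protein survivin, was 8.11, 11.1 and 10.6 CPM untreated, 13.2, 13.5 and 11.4 CPM treated and 5.56, 6.22 and 7.51 CPM after both, and fell against untreated as well (-0.62 ± 0.13 (SE), adjusted p = 3.13e-04).

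DNA replication genes fell against untreated aggregates too, 18 of 40 with 2 rising (median -0.214). None rose without primed plus treated replicate 2 or 3, untreated replicate 1 or 2, or the 6 MYH7 libraries. RRM2, the ribonucleotide reductase subunit gene (2:10122568-10211010), was 23.6, 25.5 and 24.6 CPM untreated, 28.5, 24.2 and 22.4 CPM treated and 9.78, 12.7 and 13.7 CPM after both exposures (-1.02 ± 0.11 (SE), adjusted p = 3.78e-08 against untreated). CDC6 fell from 89.4, 95.5 and 115 to 51.1, 53.7 and 52.7 CPM (-0.93 ± 0.071 (SE), adjusted p = 1.24e-11), and E2F1, a driver of entry into S phase, from 9.81, 9.34 and 9.69 to 5.43, 5.34 and 6.37 CPM (log2 -0.74). The G1 regulators CCND1 and CDKN1B, encoding cyclin D1 and p27, did not pass (log2 0.01 and -0.08, adjusted p = 0.886 and 0.301). CCND3 rose by 0.64 and RBL2, a retinoblastoma family gene, by 0.52.

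**Figure D4:**
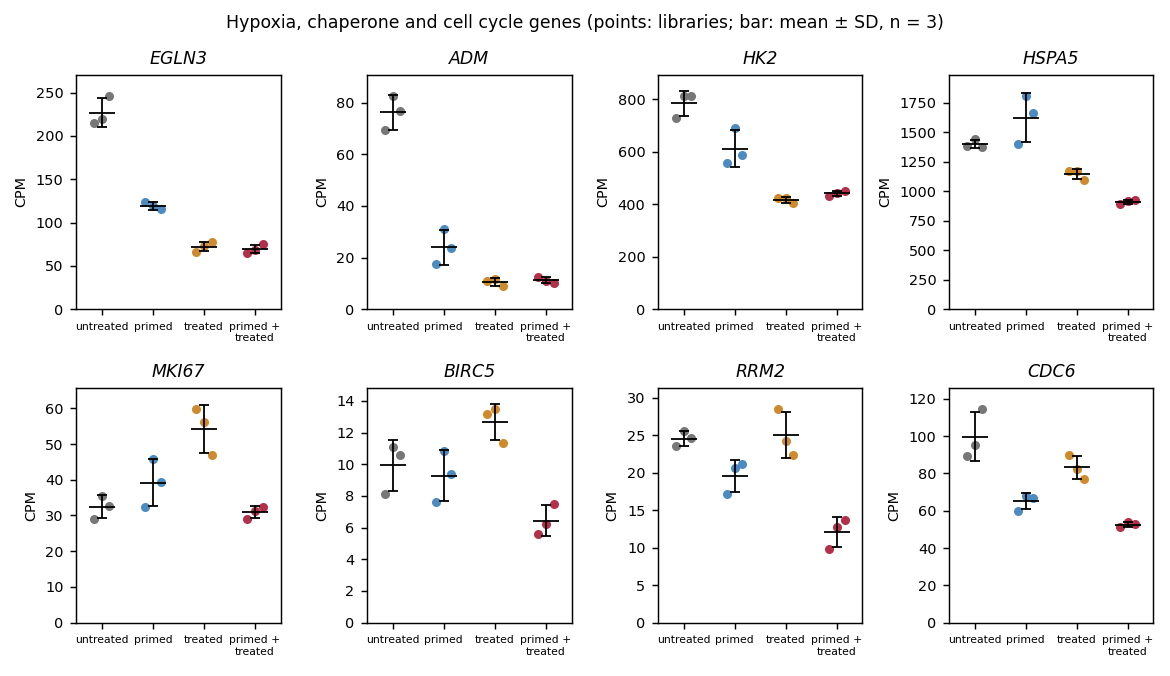
CPM of 8 hypoxia, chaperone and cell cycle genes (y axes, each from 0) in 4 groups of aggregates; points are libraries, bars mean ± SD (n = 3). EGLN3, ADM and HK2 are at like levels in treated and primed plus treated aggregates, while MKI67 and BIRC5 are highest in treated aggregates, and HSPA5, RRM2 and CDC6 are lowest after both exposures.

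Other differences from treated aggregates lay outside the cell cycle. TGM2, a transglutaminase gene, was 9.25, 13.7 and 8.67 CPM in treated and 28.9, 30.5 and 18.8 CPM in primed plus treated aggregates (log2 1.31, adjusted p = 0.00678). ALDH1A1, a retinaldehyde dehydrogenase gene, was 14.5, 13.7 and 12.6 against 5.97, 5.88 and 8.02 CPM (log2 -1.03, adjusted p = 4.73e-06), and DKK1, a WNT antagonist gene, 12.9, 13.2 and 10.2 against 5.52, 6.51 and 6.59 CPM (log2 -0.96, adjusted p = 8.09e-05). In the fit of all libraries none of these 3 passed against untreated aggregates (log2 0.30, -0.29 and 0.15). Integrin and matrix genes fell in 12 of 38 cases and none rose, with ITGB4, the hemidesmosome integrin gene, at 74.3, 76.6 and 66.6 CPM treated and 58.5, 54.7 and 49.03 CPM after both (log2 -0.42). Against untreated aggregates 11 of the 38 rose and 7 fell (3 fell without the 6 MYH7 libraries), and ITGB4 was higher (28.8, 28.7 and 28.1 CPM untreated, log2 0.92).

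Against primed aggregates, which lie in the other library set, 4754 genes passed (29.8%), 2383 higher (14.9%) and 2371 lower (14.8%). ERBB2, GRB7, ERBB3, INSR and IGF1R did not pass there (log2 -0.01, 0.11, -0.10, 0.06 and 0.07). CYP1A1 (log2 3.34), TXNIP and LCN2 (log2 1.46) were higher than in primed aggregates, and EGLN3 (log2 -0.78) and HSPA5 were lower. Mitosis genes were lower in 21 of 40 cases and higher in 1.

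Several of the largest fold changes moved with the library set. SPP1, the osteopontin gene, was 1.18, 1.12 and 1.07 CPM in untreated and 22.7, 4.24 and 10.7 CPM in primed plus treated aggregates, and its call was lost without the 6 libraries that carried MYH7 (log2 3.53, adjusted p = 0.11). In the other direction, GJA1 (connexin 43) fell from 11.5, 15.7 and 9.04 to 0.404, 0.336 and 0.331 CPM, VIM (vimentin) from 18.98, 28.3 and 14.4 to 2.33, 1.47 and 1.58 CPM and TMSB4X (thymosin beta 4) from 32.6, 48.9 and 27.5 to 7.40, 3.53 and 3.87 CPM. Primed aggregates had VIM at 36.8, 62.7 and 80.6 CPM. SPP1, GJA1, VIM and TMSB4X, but not TXNIP, DEPP1, CYP1A1, EGLN3 or ADM, are among the 575 tested genes that separate every one of the 9 libraries from every one of the 12. Of the 208 genes chosen to be named, 48 are among the 575. Without the 575, 3 metallothionein list genes rose in place of 4 and 9 junction genes in place of 12.

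Markers of other tissues show the same split. Of 15 kidney genes 10 rose and 1 fell, and their summed level was 6.84 to 8.46 CPM in untreated and 20.0 to 53.5 CPM in exposed aggregates. Of 10 brain genes 8 rose and none fell (16.6 to 18.6 and 43.6 to 58.2 CPM). Of 8 melanocyte genes none rose and 7 fell (18.6 to 25.9 and 3.77 to 4.57 CPM), and of 12 mesenchymal genes 1 rose and 6 fell (31.3 to 58.9 and 10.7 to 14.6 CPM). Striated muscle genes rose in none and fell in 3 of 10 (5 without untreated replicate 3 and 1 without any other replicate of the 2 groups), and blood and endothelial genes rose in 2 and fell in 1 of 6. POSTN had no count in the exposed aggregates, which with a floor of 3 counts over the group makes it at least 415-fold lower there. The genes AQP2, UGT2B7, STMN2 and NEFL had none in the untreated aggregates and were at least 30.5-, 28.3-, 14.3- and 13.5-fold higher after both exposures. The part of these transcripts in the results above was not tested. Leaving out the 575 genes that separate the sets left 5071 genes passing, 550 of them at 2-fold or more.

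**Figure D5:**
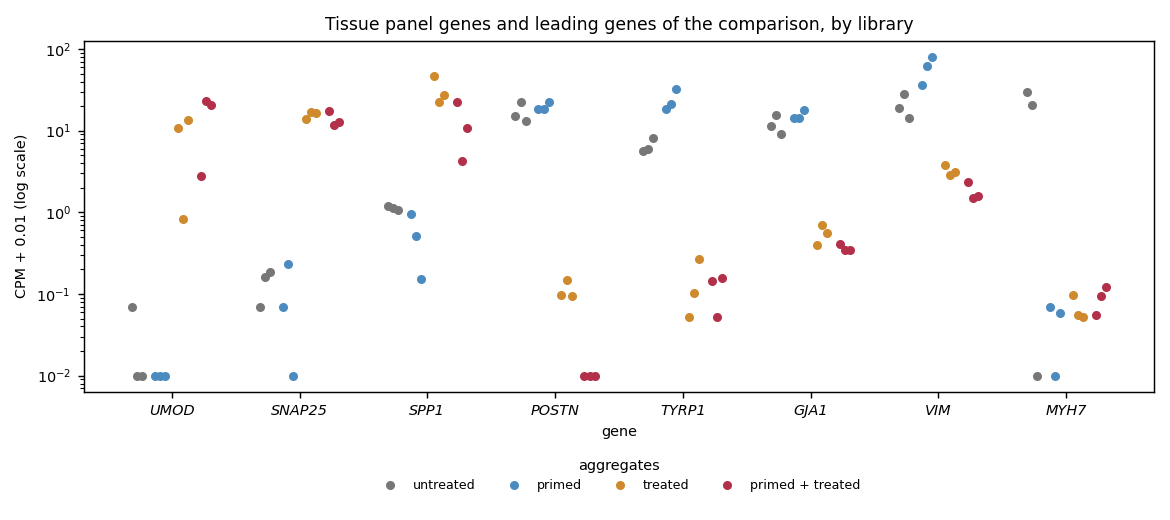
CPM plus 0.01 on a log axis for 8 genes (x axis) in each library of the 4 aggregate groups. UMOD, SNAP25 and SPP1 are high in treated and primed plus treated aggregates, POSTN, TYRP1, GJA1 and VIM in untreated and primed aggregates, and MYH7 in 2 of the untreated libraries.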

How the data were processed

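RNA was extracted with TRIzol and made into TruSeq libraries, per the labels' protocols. The deposited table holds whole-number counts per gene made by the authors with featureCounts against hg38, per the submitters' processing notes, which also name limma; versions and strand settings are not given in the sources used here. It lists 16553 genes by Entrez identifier (174 without a symbol), each reaching at least 0.501 CPM in some library. The comparison was taken from a fit of all 7 groups of 3 in edgeR 4.0.16 (R 4.3.3): TMM factors (0.973 to 1.04), filterByExpr by group (584 genes with 0.0116% of counts removed), 1 mean per group, the robust quasi-likelihood test (14 residual degrees of freedom, common biological variation 5.98%), two-sided, with Benjamini-Hochberg adjustment over 15969 genes. SE is the log2 fold change divided by the root of F. Replicates of a group differed by more than sampling noise (chi-square per degree of freedom 3.31 or more in the 2 groups), so none was merged. Alternatives used DESeq2 1.42.0, limma 3.58.1 voom, RLE factors, other filters, glmTreat, the 2 groups alone, a replicate block and left-out libraries. Leaving out genes that separate the 2 library sets was added after seeing the data. It adjusted the p-values of the main fit again, with no new fit.

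The comparison and the gene lists were chosen with earlier results of these data known. Named were the 12 largest rises and falls among passing genes with at least 10 CPM in a group, at least 4 counts in each and no overlap (tissue panel genes, uncharacterised loci, non-coding clones and pseudogenes left out); the 4 smallest p-values in each list; fixed genes of HER2 signalling, hypoxia and proliferation; the 6 largest rises and falls against treated and against primed aggregates; and the 3 most abundant and 3 most changed genes of each tissue panel. Some genes that these rules name are not reported here. Genes named otherwise are marked where they appear. EPCAM, KRT7, KRT8, KRT18 and CDH1 are fixed markers of luminal breast epithelium with amplified ERBB2.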

Additional observations from a re-analysis of the deposited data

Results flagged for a closer look

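The change that goes with priming was measured in aggregates that also received the late exposure (primed plus treated against treated) and in those that did not (primed against untreated), and the difference between these changes was tested in the same edgeR fit. Each change lies within 1 library set, but melanocyte genes, summed, were 18.6 to 25.9 CPM in untreated and 58.6 to 97.7 CPM in primed aggregates. Of 15 kidney genes, 5 were lower and none higher in primed plus treated than in treated aggregates (4.8% of all genes were lower). The part of other-tissue transcripts in the differences between these changes was not tested. Over all genes 1992 of 15969 passed, 807 with a higher and 1185 with a lower value in the treated background, and 17 of 41 named genes looked at were among them.

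For ERBB2, GRB7, ERBB3 and INSR the change with priming was smaller or opposite after the late exposure, while EGFR did not pass (difference 0.08, adjusted p = 0.601). The difference was -0.55 on the log2 scale for ERBB2 (adjusted p = 2.7e-06), where priming went with -0.13 in treated and 0.42 in untreated aggregates. It was -0.62 for GRB7, -0.62 for ERBB3 and -0.63 for INSR. The ERK-induced genes SPRY4 and DUSP6 differed by -1.01 and -1.05, and TXNIP by -1.12 (0.66 in treated and 1.78 in untreated aggregates, adjusted p = 0.0128). MKI67 differed by -1.08 (-0.81 and 0.27, adjusted p = 4.26e-05), and CCND1 by -0.23.

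Of 5 hypoxia list genes looked at, 4 differed upward, having fallen with priming in untreated aggregates: ADM by 1.75 (0.09 in treated and -1.66 in untreated aggregates, adjusted p = 1.55e-06), EGLN3 by 0.88, ANKRD37 by 0.97 and VEGFA by 0.46. CA9 of that list and SLC2A3 of the glycolysis list did not pass (0.91 and 1.196, adjusted p = 0.0919 and 0.055). MYC and SERPINI1, the neuroserpin gene, differed by 0.36 and 0.49. CYP1A1 differed by 0.90 (1.48 and 0.58, adjusted p = 0.014) and LCN2 by 0.74 (0.81 and 0.08, adjusted p = 0.0437), both changes being larger in treated aggregates.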

How the results depend on the processing

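Of 208 named genes, 179 kept their direction and side of the threshold in every alternative that held them, glmTreat aside. Named genes were not looked up with glmTreat. The fit of genes averaging 10 CPM held 150 of them, that of only the 2 groups 202 and that without the MYH7 libraries 205. Leaving out the genes that separate the library sets kept 160. That step only adjusted the p-values of the main fit again, so no fold change or direction could move. The 5671 genes passing against untreated aggregates became 5610 with DESeq2, 5739 with limma voom, 4481 among genes averaging 10 CPM, and 4703 to 5375 when 1 replicate was left out. Asking for a change beyond 1.5-fold with glmTreat left 440. The 769 genes at 2-fold or more became 82 among genes averaging 10 CPM (fewer genes tested) and 660 to 775 with 1 replicate left out. Against treated aggregates the 1274 genes became 2050 in a fit of only the 2 groups and 695 to 1138 with 1 replicate left out, with 820 and 695 lacking primed plus treated replicate 1 or 2 and 780 lacking treated replicate 1; the cause was not tested. Against primed aggregates the 4754 genes became 3748 to 4754 with 1 replicate left out, 3503 among genes averaging 10 CPM and 4924 without the 6 MYH7 libraries.

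Deviations of same-numbered replicates correlated at 0.30, -0.0518 and 0.0109, and those of differently numbered ones at -0.242 to 0.238. With 3 replicates a group, this check cannot settle whether the numbers pair the samples. The replicate block gave 5617 genes, 762 of them at 2-fold or more.

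Without the 6 libraries that carried MYH7, where the lone untreated aggregate is assumed to vary like the other groups, 4185 genes passed and 688 did so at 2-fold or more, 441 higher and 247 lower against 374 and 395 in the full fit. There the hypoxia list had 17 members falling, glycolysis 18, the nuclear respiratory chain 28, ATF4 and unfolded protein 20, ribosomal proteins 30 and replication 14. Calls lost in that fit included FADS1 (-1.44), TXNRD1 (0.24), TGM1 (-0.68), CEL (0.32), LDLRAD1 (0.37), LPIN1 (0.14) and ERAP1 (0.23). In the fit of only the 2 groups CHCHD10 (0.77) was lost and DUSP6 (0.33) gained. ALDH1A1 passed without primed plus treated replicate 3 (-0.47, adjusted p = 0.0197) and without untreated replicate 1 (-0.42, adjusted p = 0.0305). In the lists, counts of 0 to 2 members also moved by 1 in several fits. Genes that changed sign did not pass against untreated aggregates in these fits: COL1A1 was 0.01 with voom, 0.46 without the MYH7 libraries and -0.2 to 0.14 with 1 replicate left out. SPTSSB was -0.15 without the MYH7 libraries. DKK1 was -0.11 there and -0.08 to 0.29 with 1 replicate left out, and CCND1 -0.06 and -0.01 to 0.04.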

Other observations

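Some gene groups outside the main account also differed between primed plus treated and untreated aggregates. In the Notch and stem cell list 9 of 22 genes rose and 3 fell (median 0.153). PROM1, the gene of the surface marker CD133, was 36.4, 41.3 and 39.1 CPM in untreated and 71.4, 70.2 and 65.3 CPM in exposed aggregates (0.82 ± 0.068 (SE), adjusted p = 1.85e-11), and NOTCH3 and KLF4 rose by 0.57 and 0.56. Autophagy and lysosome genes rose in 12 of 38 cases and fell in 3 (5 without untreated replicate 2), with GABARAPL1, an autophagosome protein gene, at 56.7, 54.3 and 53.5 and 77.1, 74.9 and 77.4 CPM (0.48 ± 0.054 (SE), adjusted p = 1.17e-08). MITF, a transcription factor of lysosome and pigment genes, fell from 8.29, 8.68 and 6.60 to 3.14, 3.40 and 3.42 CPM, beside the melanocyte genes that fell between the library sets, and their part in its fall was not tested. H19, an imprinted non-coding RNA, fell from 335, 363 and 436 to 113, 108 and 112 CPM (-1.77 ± 0.13 (SE), adjusted p = 3.54e-08) and was 234, 208 and 149 CPM in primed aggregates.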
